A study of Mus musculus with 28 samples.

Results

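Chromatin accessibility at day 10 of reprogramming was compared between cells that had received the stalling Tet2 mutant, Tet2-E, and cells that had received the empty pMXs retrovirus. The comparison holds 8 of the 28 ATAC-seq libraries of the series, 4 with Tet2-E (T2Dd10e1 to T2Dd10e4) and 4 with the empty vector (T2Dd10pmxs1 to T2Dd10pmxs4), chosen by their titles. Both groups began as primary fibroblasts (MEFs) of the V6.5 129XBI/6 background taken at embryonic day 12.5. All of these cells were Tet2-/- and carried the OKSM reprogramming factors and rtTA, so that the controls lack Tet2 as well and the only added Tet2 is the one the retrovirus drives. Cells of both groups were plated on Mito-C-treated feeder fibroblasts and kept for 10 days in LIF and 2 µg/mL doxycycline, with CHIR99021 at 3 µM and PD0325901 at 1 µM. They were then isolated by SSEA1-RFP flow sorting, and 75000 cells entered each transposition. No label says that replicate libraries are separate cultures or animals, and the p-values therefore cover only library-to-library spread, possibly technical.

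TET enzymes oxidise the methyl group of 5-methylcytosine in successive steps, and a stalling mutant makes the first oxidised base while passing on little to the later ones. The comparison with the empty vector asks what such an enzyme adds to cells that have no Tet2. Pluripotent reprogramming closes fibroblast enhancers and opens regulatory regions of the pluripotent state, and SSEA1 is a surface marker gained on the way. ATAC-seq reads this as sites where a transposase can cut, and each library was deposited as a list of peaks, places where cuts pile up above the local background. In such bulk data, fewer cells with an open region and less opening per cell cannot be told apart.

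No difference between Tet2-E and the empty vector passed a test at day 10, in single regions, in 1 Mb windows or in values of whole libraries. For single regions and library values this says little. The smallest p that 4 against 4 libraries allow is 0.0286, which passes the adjustment only where most of a family is at it. Windows, too, have limits. Their counts are scaled to each list, so a change common to all windows does not show, nor do gains and losses that cancel within a window. The 2 groups of 4 libraries overlapped in every one of the 11 library values that were compared. Regions called in all 4 libraries of one vector and none of the other numbered 57 for Tet2-E and 46 for the empty vector, of 48201 regions tested (0.118% and 0.0954%). Their median widths of 206 and 176.5 bp and median folds of 6.22 and 6.09 compare with 209 bp and 6.09 for all regions called in exactly 4 of the 8 libraries. Together the 57 and 46 are 1.97% of the 5223 regions called in exactly 4 libraries, the only ones that could differ completely. Each of these 103 regions was also called in at least 1 MEF, day 5 or Tet2-WT library. So were all but 25 of the 5223 regions called in exactly 4 libraries and all but 801 of the 48201 tested. No gene annotation of mm9, the build of these lists, was used here, so regions are described by position and by their calls in MEFs, at day 5 and with wild-type Tet2 (Tet2-WT), and neither the Tet2 gene nor marker genes of a cell type were examined.

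The 8 libraries differed more within the Tet2-E group than between the groups. Tet2-E libraries 1 to 4 held 45871, 40949, 32575 and 27809 peaks on chromosomes 1 to 19 and X. Empty vector libraries 1 to 4 held 40989, 36979, 37140 and 31170. The highest and the lowest list were thus both Tet2-E lists, and all 4 empty vector lists lay between them. The means were 36801 ± 8128 and 36569.5 ± 4049 peaks (SD, n = 4 each; exact permutation p = 0.943, adjusted p = 1). The difference of 231.5 peaks had an exact 97.1% interval from -13180 to 14701, so these libraries do not exclude differences inside these bounds. Peaks covered 4809743 to 9463270 bp with Tet2-E and 5559933 to 8007853 bp with the empty vector. The median peak width was 137 to 168 bp and 136 to 151 bp.

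The relative depth, read from the lists as the commonest background pileup behind their peaks, spread in the same way. It was 0.768, 0.636, 0.466 and 0.361 in Tet2-E libraries 1 to 4, and 0.506, 0.495, 0.482 and 0.42 in empty vector libraries 1 to 4 (exact permutation p = 0.457, adjusted p = 1). Across the 8 libraries, peaks followed this background (Pearson r = 0.91, exact permutation p = 0.000298, adjusted p = 0.000595; Spearman rho = 0.95, exact permutation p = 0.00114, adjusted p = 0.00114; 4 relations tested). Without Tet2-E libraries 1 and 2, the 2 farthest from the median depth, r was 0.93. Depth and peaks come from the same lists, and 4 libraries per group are too few for a correlation within a group.

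**Figure D1:**
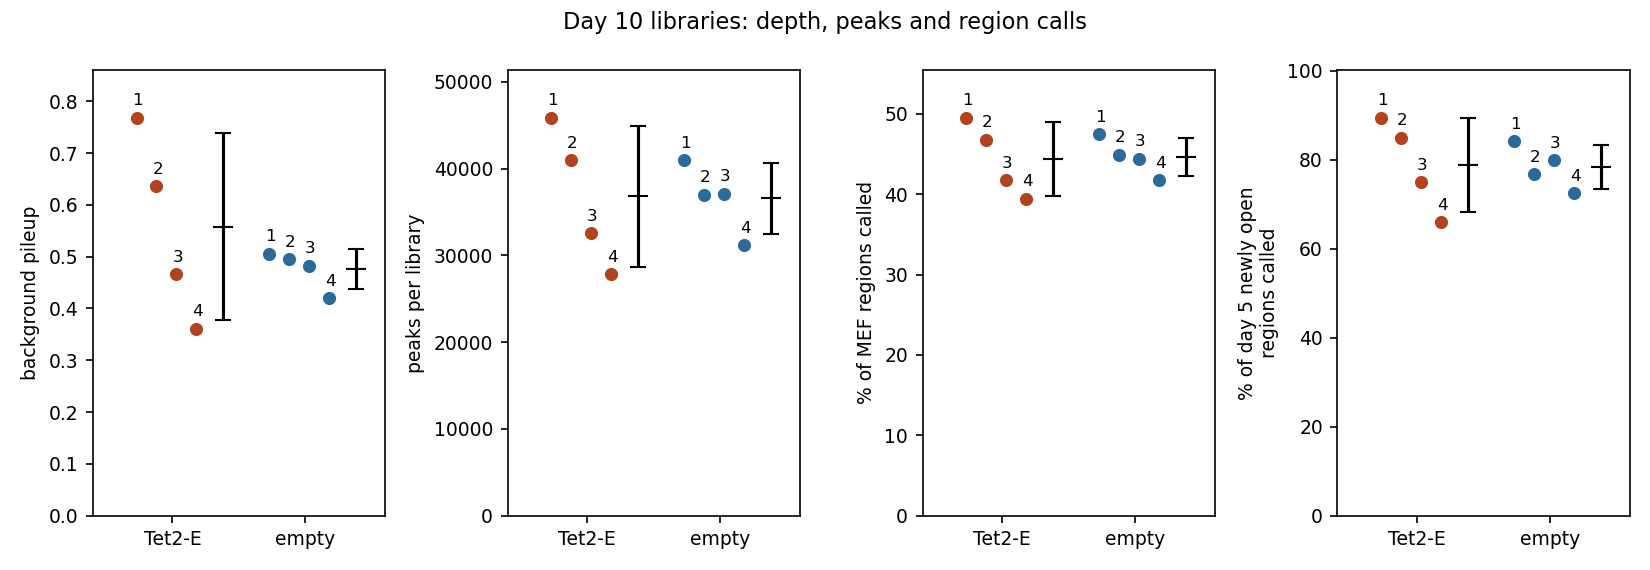
Background pileup, peaks per library, percentage of MEF regions called and percentage of regions newly open at day 5 called, for the 4 Tet2-E and 4 empty vector libraries of day 10. Each point is 1 library with its replicate number, and the bar beside the points is the mean with its SD. In every panel the Tet2-E libraries span a wider range that contains all 4 empty vector libraries.

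Calls of fibroblast chromatin overlapped between the groups. Of 27913 regions called in all 4 MEF libraries, Tet2-E libraries 1 to 4 called 49.5%, 46.8%, 41.8% and 39.4%. Empty vector libraries 1 to 4 called 47.5%, 44.9%, 44.4% and 41.7%. The group means of 44.4% ± 4.61 and 44.6% ± 2.34 (SD, n = 4 each) differed by -0.24 percentage points, with an exact 97.1% interval from -8.03 to 7.78 (exact permutation p = 0.886, adjusted p = 1). The share followed the relative depth over the 8 libraries (Pearson r = 0.89, exact permutation p = 0.00129, adjusted p = 0.00129; Spearman rho = 0.98, exact permutation p = 0.000397, adjusted p = 0.000529; r = 0.90 without Tet2-E libraries 1 and 2). Regions called in all 4 MEF libraries and in none of the 12 day 5 libraries (closed regions) were rarely called at day 10. Of 6664 such regions, 0.21% to 0.93% were called with Tet2-E and 0.26% to 0.75% with the empty vector. With each vector the day 10 libraries were shallower than those of day 5. Relative depth was 0.361 to 0.768 against 0.792 to 0.919 with Tet2-E, and 0.42 to 0.506 against 0.746 to 0.881 with the empty vector. The part of depth in the few calls of closed regions was not tested. When all libraries of the series were cut to their 27809 strongest peaks and the closed regions defined anew, the mean share called was 0.617% ± 0.165 with Tet2-E and 0.851% ± 0.16 with the empty vector (SD, n = 4 each; exact permutation p = 0.0571, adjusted p = 0.629), a direction that the full lists did not show.

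Most regions opened by day 5 were still called at day 10 in both groups. Tet2-E libraries 1 to 4 called 89.4%, 84.9%, 74.9% and 65.9% of the 5470 regions found in 0 of 4 MEF and 12 of 12 day 5 libraries. Empty vector libraries 1 to 4 called 84.1%, 76.7%, 79.9% and 72.4% of them. The means were 78.8% ± 10.5 and 78.3% ± 4.93 (SD, n = 4 each; exact permutation p = 0.943, adjusted p = 1). With 27809 peaks in each library and newly open regions defined anew, the means were 85.8% ± 2.29 and 85.6% ± 1.26, and the wide Tet2-E range of the full lists narrowed. Over the 8 libraries the share followed the relative depth (Pearson r = 0.90, exact permutation p = 0.000918, adjusted p = 0.00122; Spearman rho = 0.98, exact permutation p = 0.000397, adjusted p = 0.000529). Without the 2 Tet2-E libraries farthest in depth, r was 0.93.

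Calls of regions that were open with the wild-type enzyme overlapped as well. Of 4859 regions called in 4 of 4 Tet2-WT day 10 and 0 of 4 MEF libraries, Tet2-E libraries called 73.3% to 94.7% and empty vector libraries 77.1% to 88.6%. Their means of 84.7% ± 10.3 and 83.7% ± 4.82 did not pass (SD, n = 4 each; exact permutation p = 0.886, adjusted p = 1). The 97.1% interval of that difference ran from -15.3 to 17.6 percentage points. These shares, too, followed the relative depth over the 8 libraries (Pearson r = 0.92, exact permutation p = 2.48e-05, adjusted p = 9.92e-05; Spearman rho = 1, exact permutation p = 4.96e-05, adjusted p = 0.000198; r = 0.93 without Tet2-E libraries 1 and 2). Similarity of whole lists to the Tet2-WT libraries, as the Jaccard index (shared base pairs over base pairs in either list), averaged 0.408 ± 0.0312 with Tet2-E and 0.407 ± 0.0126 with the empty vector (SD, n = 4 each; exact permutation p = 0.943, adjusted p = 1). The X chromosome held 2.16% ± 0.11 and 2.13% ± 0.0668 of the peaks (exact permutation p = 0.8, adjusted p = 1, n = 4 each).

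By the Jaccard index, lists of the same vector were no more alike than lists of different vectors. The mean Jaccard index was 0.399 among Tet2-E libraries, 0.411 among empty vector libraries and 0.41 between the groups. Within minus between similarity was -0.00532 (exact permutation p = 0.371). Tet2-E libraries 1 and 2 shared the most, at 0.466. The next pair in the order crossed the vectors, with 0.453 between Tet2-E library 1 and empty vector library 1. The lowest index, 0.366, lay within the Tet2-E group, between libraries 2 and 4. Unequal list lengths limit how high the index can be. Lists covered 4809743 to 9463270 bp with Tet2-E and 5559933 to 8007853 bp with the empty vector. The part of length in these values was not tested.

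Overlapping peaks of the 8 lists merged into 79949 regions. A total of 12528 were called in all 8 libraries, and 31748, or 39.7%, were called in a single library. Regions of the common core were wide and high, with a median width of 474 bp and a median authors' fold of 8.45 over the calling libraries. Of the core, 66.6% was called in all 4 MEF libraries and 21.7% in none, while 90.5% was called in 12 of 12 day 5 libraries and 90.8% in 4 of 4 Tet2-WT day 10 libraries. Only 12 core regions were called in neither a MEF nor a day 5 library. Regions called in a single library made up 14.6%, 13.6%, 9.65% and 6.33% of those called by Tet2-E libraries 1 to 4. In empty vector libraries 1 to 4 they made up 14.0%, 11.7%, 11.3% and 8.82%. The share was highest in the deepest library and lowest in the shallowest.

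A region found in all 4 libraries of one vector was usually found in the other. Of 15575 regions in 4 of 4 Tet2-E libraries, 80.4% were in 4 of 4 and 93.1% in 3 or 4 of the empty vector libraries. In the reverse direction, 78.6% of 15929 regions in 4 of 4 empty vector libraries were in 4 of 4 and 93.1% in 3 or 4 of the Tet2-E libraries. Requiring 3 of 4 libraries gave 24081 Tet2-E and 23654 empty vector regions, of which 19247 were shared, 79.9% of the first list and 81.4% of the second. Among the 48201 regions called in at least 2 libraries, 12487 were called in more Tet2-E than empty vector libraries, 11514 in fewer and 24200 in equal numbers.

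**Figure D2:**
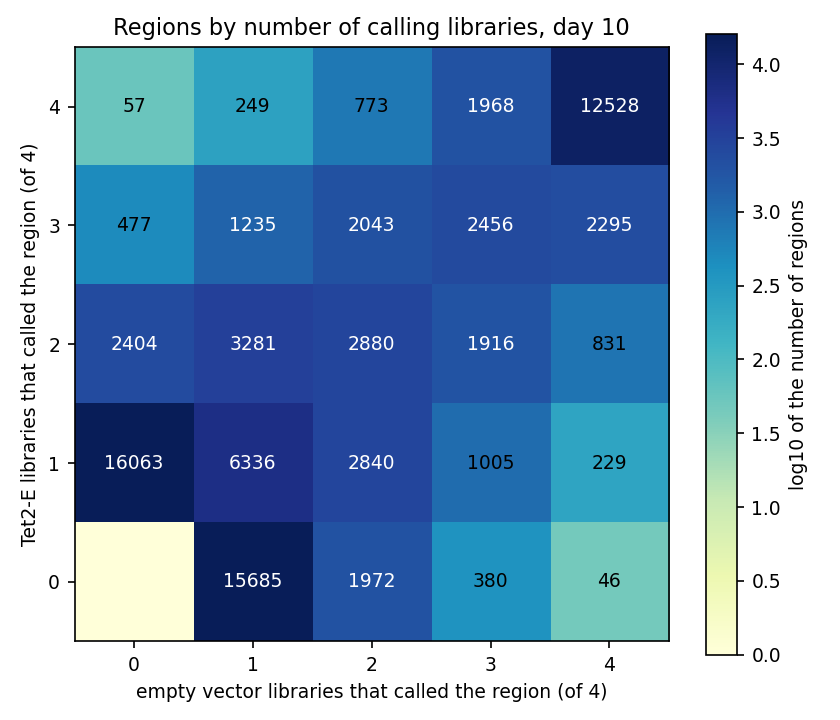
Number of regions by how many of 4 Tet2-E libraries (vertical axis) and how many of 4 empty vector libraries (horizontal axis) called them. Most regions called in 4 libraries of one vector lie in the upper right cell with 12528, and the 2 corners of complete difference hold 57 and 46.

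Fisher's exact test on the number of calling libraries left 0 regions called more often and 0 called less often with Tet2-E after Benjamini-Hochberg adjustment (0% of 48201 in each direction, smallest adjusted p = 1). The smallest p that 4 against 4 libraries allow is 0.0286, so this test could have passed only if most regions had differed. At an unadjusted p under 0.05 it called the 103 regions of complete difference and no others. The 57 regions in 4 of 4 Tet2-E and 0 of 4 empty vector libraries are 0.118% of the regions tested, and the 46 in the opposite corner are 0.0954%. Only regions called in exactly 4 of the 8 libraries could differ completely, and the 103 are 1.97% of those 5223. Near-complete differences of 4 against 1 library numbered 249 for Tet2-E and 229 for the empty vector, again close to each other.

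How many regions differed completely depended on each of the 8 libraries. Without Tet2-E library 1, 2, 3 or 4, the complete differences were 109, 132, 205 and 268 for Tet2-E and 172, 103, 77 and 59 for the empty vector. Without empty vector library 1, 2, 3 or 4 they were 155, 116, 109 and 97 for Tet2-E and 111, 139, 145 and 168 for the empty vector. The Tet2-E list was the larger without Tet2-E library 2, 3 or 4 or empty vector library 1, and the empty vector list was the larger in the other 4 cases. Fewer libraries make a complete difference easier to reach, so the counts rose in every case. With 27809 peaks in each library, 61 and 43 regions differed completely, of which 22 and 12 belonged to the 57 and 46 of the full lists.

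The same rule was applied to other contrasts of the series. At day 5, in 8 other libraries, Tet2-E and the empty vector had 58 and 56 complete regions of 62106 tested (0.0934% and 0.0902%). At day 10, Tet2-WT against the same empty vector libraries gave 129 and 40 of 49946 (0.258% and 0.0801%). Tet2-E against Tet2-WT gave 34 and 66 of 50442 (0.0674% and 0.131%). These day 10 contrasts share libraries with the one described here. Tet2-E at day 10 against MEFs, by contrast, gave 3940 regions in 4 of 4 day 10 and 0 of 4 MEF libraries and 12536 in the reverse (5.32% and 16.9% of 74052).

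Regions called only with Tet2-E had the width and fold of other regions called in 4 libraries. Their median width was 206 bp and their median authors' fold 6.22, with single regions from 4.78 to 8.21. The 5223 regions called in exactly 4 of the 8 libraries, in any split, had medians of 209 bp and 6.09, and all regions tested had 242 bp and 6.45. In the fold ranking of each Tet2-E library's own list, their median stood at percentile 33.0 to 47.3. Regions called in exactly 4 libraries stood at percentile 32.0 to 41.1 and core regions at 72.9 to 83.6. Of the 57, 24 were called in 0 and 15 in 4 of the MEF libraries. In percentages these were 42.1% and 26.3%, beside 49.6% and 17.4% of regions called in exactly 4 libraries. Over all regions tested the shares were 43.6% and 31.1%. Of the 57, 6, or 10.5%, lay within 500 bp of a core region. Of regions called in exactly 4 libraries 4.10% did, and of all regions tested 3.48%.

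The highest fold among them belonged to chr7:107137374-107137515, with folds of 8.49, 7.64, 8.19 and 8.24 in Tet2-E libraries 1 to 4. It was also called in 3 of 4 MEF libraries, in 2 of 4 at day 5 with either vector and in 1 of 4 with Tet2-WT at day 10. The region chr2:155637600-155637784 had folds of 6.57, 9.0, 5.99 and 10.2. It was found in 3 of 4 libraries of each vector at day 5 and in 3 of 4 Tet2-WT libraries at day 10. The region chr9:63710330-63710501 (median fold 7.72) was called in 3 Tet2-E and 1 empty vector library at day 5. The region chr6:31216537-31216714 (median fold 7.34) was called in 0 MEF, 1 Tet2-E and 0 empty vector day 5 libraries and in 2 of 4 Tet2-WT libraries at both days. Both were called in more Tet2-E than empty vector libraries at day 5.

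The region chr12:111724329-111724534 (median fold 6.99) was open nearly everywhere else, in 4 of 4 MEF, 4 of 4 Tet2-WT day 10 and 3 of 4 Tet2-E and empty vector day 5 libraries. The other 7 of the 12 regions with the highest folds lay on chr4:148142077-148142268, chr12:87003917-87004071, chr11:51899632-51899944, chr11:116937993-116938159, chr3:4386779-4387010, chr8:10008965-10009160 and chr10:24647232-24647492. Of all 12, 6 were called in 0 MEF libraries and 1 in 4, beside 49.6% and 17.4% of regions called in exactly 4 libraries. Over all regions tested these shares were 43.6% and 31.1%. At least 1 Tet2-WT day 10 library called each of the 12. Of regions called in exactly 4 libraries only 9.27% were absent from all Tet2-WT day 10 libraries, and of all regions tested 12.4%, so this is near the background. At day 5, 4 of them were called in more Tet2-E than empty vector libraries, 3 in fewer and 5 in equal numbers. Over regions called in exactly 4 libraries these shares were 29.7%, 29.2% and 41.0%.

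Regions called only with the empty vector had a median width of 176.5 bp and a median fold of 6.09, from 4.87 to 8.88. Their median stood at percentile 36.4 to 47.5 of fold in each empty vector list. Of the 46, 17 were called in 0 and 9 in 4 MEF libraries, which is 37.0% and 19.6%. The shares were 49.6% and 17.4% of regions called in exactly 4 libraries and 43.6% and 31.1% of all regions tested. Of the 46, 1, or 2.17%, lay within 500 bp of a core region. Of regions called in exactly 4 libraries 4.10% did, and of all regions tested 3.48%. Differences in make-up between the Tet2-E and the empty vector list were not tested.

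The region chr14:60634890-60635002 led them, with folds of 9.3, 10.7, 6.07 and 8.45 in empty vector libraries 1 to 4. It was called in 3 MEF libraries, 2 Tet2-E and 3 empty vector libraries at day 5 and 3 Tet2-WT libraries at day 10. The regions chrX:130482103-130482250 (median fold 8.57) and chr16:26234362-26234528 (median fold 7.87) shared a pattern. Both were called in 4 of 4 MEF and 4 of 4 empty vector libraries at day 5, in 2 of 4 Tet2-E libraries at day 5 and in 2 of 4 Tet2-WT libraries at day 10. The regions chr14:31693056-31693227 (median fold 7.04) and chr6:100475954-100476147 (median fold 6.82) were open late. Neither was called in a MEF or day 5 library, and Tet2-WT day 10 libraries called them in 1 and 3 of 4.

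The region chr4:49858570-49858744 (median fold 7.12) was called in all 4 MEF, Tet2-WT day 10 and empty vector day 5 libraries and in 3 of 4 with Tet2-E at day 5. The other 6 of the leading 12 lay on chr14:61731385-61731518, chr15:7881721-7881948, chr15:60989212-60989413, chr8:10023469-10023912, chr2:25550239-25550367 and chr6:118129784-118129952. Of all 12, 5 were called in 4 MEF libraries and 3 in none, beside 17.4% and 49.6% of regions called in exactly 4 libraries. Over all regions tested these shares were 31.1% and 43.6%. Tet2-WT called 11 of them in at least 1 library at day 10. Of regions called in exactly 4 libraries 9.27% were absent from all Tet2-WT day 10 libraries, and of all regions tested 12.4%, so this is near the background. At day 5, 3 were called in more Tet2-E than empty vector libraries, 6 in fewer and 3 in equal numbers. Over regions called in exactly 4 libraries these shares were 29.7%, 29.2% and 41.0%.

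**Figure D3:**
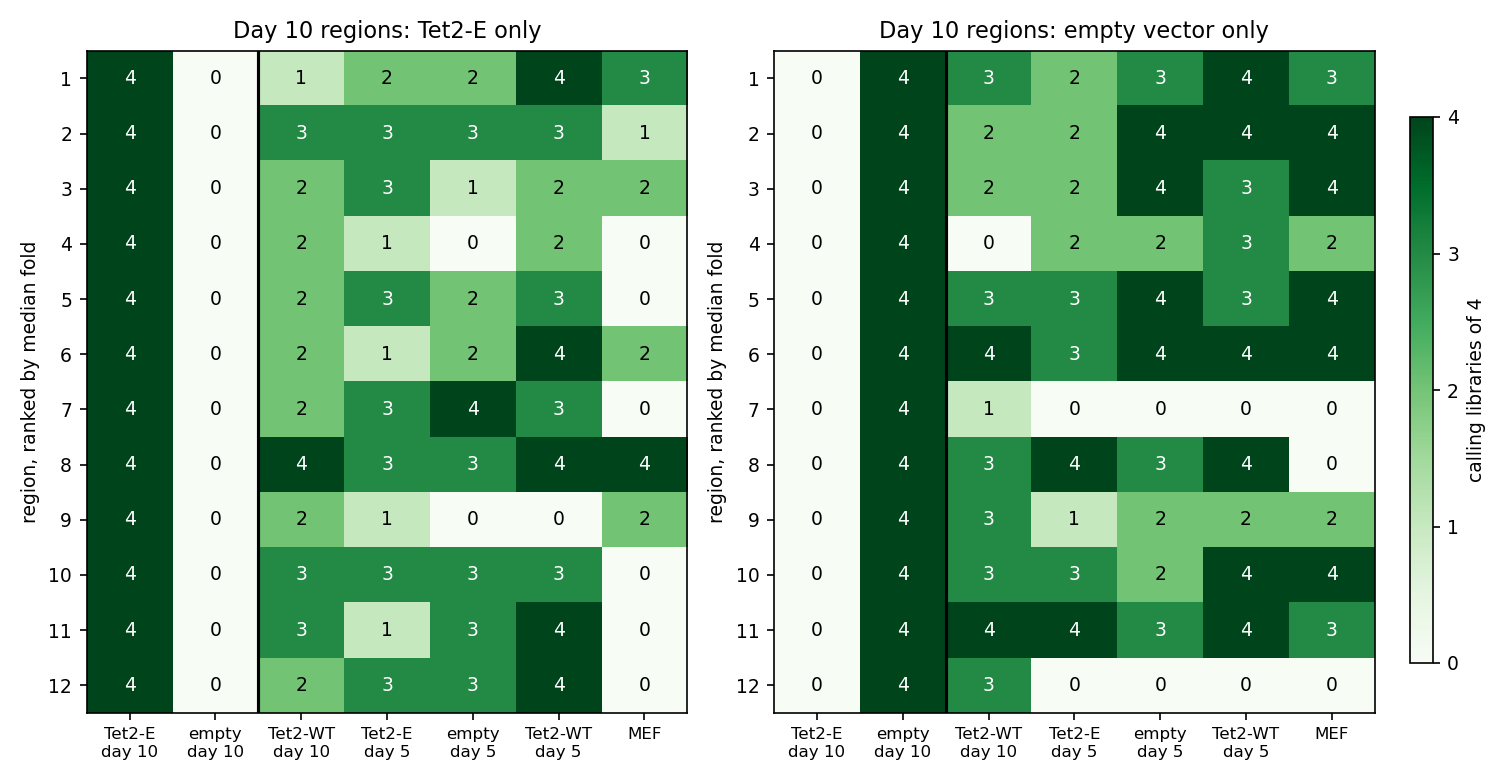
Number of libraries of 4 that called each of the 12 highest-fold regions of complete difference, left for Tet2-E only and right for the empty vector only. The first 2 columns are 4 and 0 by the choice of regions. The other columns show that each of the 24 regions was called in at least 1 library of another group, as were all but 801 of the 48201 tested.

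Libraries outside the comparison called both lists at overlapping rates. In day 5 Tet2-E libraries the 57 regions were called at 62.7% ± 14.5 and in day 5 empty vector libraries at 61.0% ± 10.2 (SD, n = 4 each), and the groups overlapped. The 46 regions were called at 57.6% ± 15.6 and 63.0% ± 7.74, again with overlap. All regions tested were called at 68.3% ± 3.82 and 68.2% ± 5.13 in the same libraries. Regions called in exactly 4 of the 8 compared libraries were called there at 52.8% to 65.2% and 54.4% to 71.8%. Of the 57, 20 were called in more Tet2-E than empty vector libraries at day 5, 14 in fewer and 23 in equal numbers, or 35.1%, 24.6% and 40.4%. For the 46 the counts were 12, 17 and 17, or 26.1%, 37.0% and 37.0%. The shares were 20.8%, 20.3% and 58.9% over all regions tested and 29.7%, 29.2% and 41.0% over regions called in exactly 4 of the 8 libraries. Complete differences at day 5 were rare, 41 and 27 of the 48201 regions tested, and none was among the 103, a count too small to set them apart.

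Tet2-WT libraries of day 10 called 49.1% to 63.2% of the regions found only with Tet2-E. They called 37.0% to 56.5% of those found only with the empty vector. All regions tested were called there at 50.4% to 71.0%, and regions called in exactly 4 of the 8 compared libraries at 33.8% to 63.6%. Only 3 of the 57 and 9 of the 46 were absent from all 4 Tet2-WT libraries, or 5.26% and 19.6%. Of regions called in exactly 4 libraries 9.27% were absent from them, and of all regions tested 12.4%. Absence from MEF, day 5 and Tet2-WT day 10 libraries alike was found in 0 of the 103, 25 of the 5223 regions called in exactly 4 libraries and 801 of the 48201 tested, so that the 0 is near the background.

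**Figure D4:**
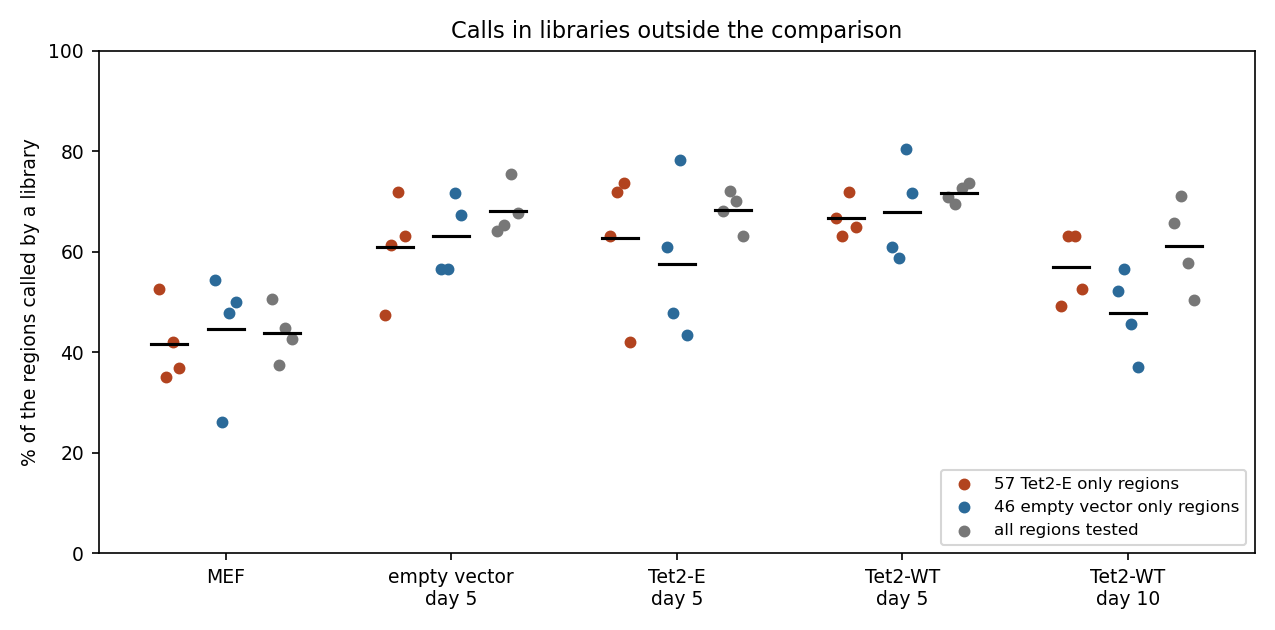
Percentage of the 57 Tet2-E only, the 46 empty vector only and all 48201 tested regions called by each library outside the comparison, with 1 point per library and a bar at the mean of 4. Within each group the 3 sets of points overlap, and at day 5 Tet2-E and empty vector libraries call the 57 regions at means of 62.7% and 61.0%.

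Grouping the tested regions by their history showed where the complete differences lay. Fibroblast regions called in 4 of 4 MEF libraries numbered 15010, and 15 and 9 of them were complete differences for Tet2-E and the empty vector. Regions in 0 MEF and 12 of 12 day 5 libraries numbered 5256, with 3 and 2 complete differences. Regions in 0 MEF and 1 to 11 day 5 libraries numbered 13550, with 19 and 13. The remaining tested regions, in 1 to 3 MEF libraries, numbered 12155 and held 18 and 20. In either direction alone, complete differences made up at most 0.165% of a class.

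Late regions, in 0 MEF and 0 day 5 libraries, varied most between libraries. They numbered 2230, with 2 complete differences in each direction. Tet2-E libraries 1 to 4 called 55.4%, 54.3%, 18.2% and 16.6% of them, and empty vector libraries 1 to 4 called 42.6%, 37.6%, 29.1% and 16.5%. The Tet2-E libraries fell into a high and a low pair, and the empty vector libraries lay between or beside them. These late regions come from the merge of the 8 lists and were kept if at least 2 of the 8 called them. A region that only Tet2-E libraries 1 and 2 called thus entered through those calls, so these shares are partly set by the filter. The group means were 36.1% ± 21.6 and 31.4% ± 11.4 (SD, n = 4 each), a gap far inside the spread. The 2 high Tet2-E libraries were also the deepest of the 8, and the part of depth in this share was not tested.

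Complete differences were spread over the genome. Over all 48201 regions tested, 103 or 0.214% differed completely. Chromosome 8 held the most, with 8 Tet2-E only and 5 empty vector only regions among 2961 tested. Chromosomes 1 and 11 held 9 each, among 3181 and 3451 tested. Whether a chromosome held more than its share was not tested. On chromosome 8 the lists met at close range. The region at 10008965 to 10009160, called only with Tet2-E, lies 14308 bp from the one at 10023469 to 10023912, called only with the empty vector, with no other region between them. A second such pair lies at 55578628 to 55578749 and 55593207 to 55593365, 14457 bp apart and likewise adjacent. These 2 pairs, the only opposite ones within 20 kb, were chosen after their values were seen.

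Peak density in windows of 1 Mb gave a graded measure that a fit across the genome can test. Of 1846 windows with a mean of at least 5 peaks, 0 had more and 0 had fewer peaks per 10000 peaks of the library with Tet2-E (limma with Benjamini-Hochberg adjustment, smallest adjusted p = 0.994; 0% called in each direction). At an unadjusted p under 0.05, 26 windows had more and 40 had fewer. Together they are a share under 0.05 of the 1846 tested, and 0.05 is what a calibrated test gives with no difference. Differences between the vectors ran from -0.80 to 0.62 on the log2(peaks per 10000 + 0.5) scale, with a median standard error of 0.15. Small differences in density could therefore not pass, and gains and losses within 1 window can cancel.

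The window with the smallest p was on chrX:139000001-140000000. Tet2-E libraries 1 to 4 held 9, 6, 4 and 2 peaks there and empty vector libraries 1 to 4 held 15, 8, 6 and 11. The log2 difference was -0.80 ± 0.24 (SE; limma, adjusted p = 0.994), and the groups overlapped once scaled to the size of each list. The window chr18:20000001-21000000 followed, with 13, 11, 3 and 7 peaks against 15, 15, 13 and 10 (log2 difference -0.66). Its scaled groups did not overlap, at 0.921 to 2.83 and 3.21 to 4.06 per 10000 peaks, but the difference was -0.21 with 27809 peaks in each library and -0.37 without Tet2-E library 3. The next windows with fewer peaks lay on chr8:41000001-42000000, chr14:106000001-107000000 and chrX:11000001-12000000, with log2 differences of -0.55, -0.56 and -0.58. The scaled groups did not overlap in the last of these, at 1.44 to 2.69 and 2.89 to 3.77, and overlapped in the other 2. Choosing windows by the smallest p favours groups that do not overlap. The chromosome 8 difference was -0.31 without Tet2-E library 4. Of these 5 windows, 2 lie on X, which holds 1015 of the 48201 regions tested. The share of tested windows on X was not counted, and an excess there was not tested. The whole-chromosome shares of peaks on X overlapped between the groups, which says nothing of single windows.

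Among windows with more peaks, chr9:114000001-115000000 had the smallest p. It held 31, 31, 22 and 20 peaks in Tet2-E libraries 1 to 4 and 23, 19, 21 and 16 in empty vector libraries 1 to 4. Per 10000 peaks these were 6.75 to 7.57 and 5.13 to 5.65, so the scaled groups did not overlap, yet the log2 difference of 0.36 ± 0.12 did not pass the adjustment (SE; limma, adjusted p = 0.994). Windows on chr1:154000001-155000000, chr11:113000001-114000000, chr11:19000001-20000000 and chr6:108000001-109000000 followed, with log2 differences of 0.35, 0.36, 0.43 and 0.29. The scaled groups did not overlap in the first and the last of these. With 27809 peaks in each library the differences were 0.28, 0.20, 0.65 and 0.08, and that of chr11:113000001-114000000 was 0.23 without empty vector library 3. All named windows were chosen by their smallest p, which favours groups that do not overlap. How many of the 1846 windows tested had such groups was not counted. No window passed under any of the alternative settings.

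**Figure D5:**
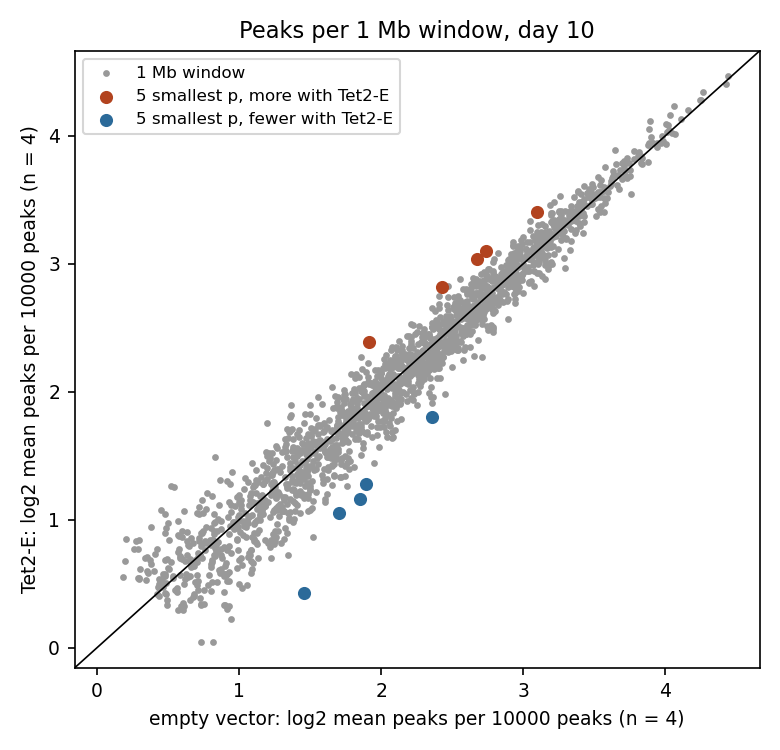
Mean peaks per 10000 peaks of a library in each of 1846 windows of 1 Mb, as log2, with the empty vector on the horizontal and Tet2-E on the vertical axis (mean of 4 libraries each); the line marks equal values. Coloured points are the 5 windows with the smallest p in each direction, none of which passed the adjustment.

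Effects of Tet2-E at day 10 were also set against those at day 5, in the 8 day 5 libraries with the same vectors. The difference in peaks was 231.5 at day 10 and -993.5 at day 5, and the difference in the share of MEF regions called was -0.24 and -2.36 percentage points. None of 9 library values differed between the days in this effect (exact permutation within days, p from 0.51 to 0.938, adjusted p = 0.938 for each).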

How the data were processed

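Accessibility was measured by ATAC-seq, and the authors deposited 1 peak list per library, not pooled. The submitters' processing notes name Bowtie2, SAMtools, bedtools, MACS2 and the build mm9. Their versions, settings, any read filter and any cut-site shift were not given in the sources used here. The deposited fold is a ratio of summit to local background within a library, the deposited -log10 p and q belong to the same summit, and the deposited score is 10 times -log10 q, rounded down, in nearly all peaks. Folds were used only to rank and describe peaks within their list. The lists hold peaks at q 0.01 or less.

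Peaks on chromosomes 1 to 19 and X of the 8 libraries were merged where they overlapped by 1 bp or more. Coordinates are mm9, counted from 1. Regions in at least 2 libraries were tested by 2-sided Fisher's exact test, and library values by 2-sided exact permutation of 4 against 4 (smallest p 0.0286, so that a library value could pass the adjustment only if most of the 11 were at that p). Benjamini-Hochberg adjustment ran over regions, over 11 library values, over 9 day differences and over 4 relations with depth. The 97.1% intervals invert the permutation test. The region sets behind the library values, named for MEF, day 5 or Tet2-WT, used none of the 8 libraries. The classes of tested regions by history rest on the merge of the 8 lists and on the filter of at least 2 calls. Windows of 1 Mb counted summits, scaled to 10000 peaks with a pseudocount of 0.5, and were fitted with limma 3.58.1 (trend) in R 4.3.3. Python 3.11.15 and SciPy 1.17.1 did the rest. The region, permutation, pileup and window steps were tested on simulated data. Read totals were not used; relative depth was inferred from fold and p, and summit pileups came out whole for 100% of peaks (tolerance 0.0002 in -log10 p).

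Named regions are the 12 per direction of complete difference with the highest median fold, and named windows the 5 per direction with the smallest p. The comparison and its region sets were chosen with earlier results of these data known. Alternatives covered overlap, peak number, q, merging, filters, window size and scaling, replicate numbers and leaving out each library. No mm9 sequence or gene annotation was used, so no sequence or gene is given.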

Additional observations from a re-analysis of the deposited data

How the results depend on the processing

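No region and no window passed under any of the alternatives that were run, and no library value or day difference did (lowest adjusted p = 0.489). For regions and library values this says little, since the smallest p of 0.0286 can pass the adjustment only where most of a family is at that p, and 0.125, the smallest with the replicate block, cannot pass. The count for the empty vector moved from 46 to 30 where peaks had to cover 50% of a region and to 28 at q 0.00001, beside 72 and 64 for Tet2-E. At q 0.00001, 14 of the 57 and 8 of the 46 regions remained, and under the coverage rule 22 and 14. Of the 24 named regions, 15 still differed 4 against 0 with equal peak numbers, 14 at q 0.00001, 10 with 50% coverage, 23 at q 0.001 and 24 with peaks merged over 100 bp. Leaving out 1 library gave 97 to 268 Tet2-E and 59 to 172 empty vector regions.

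Differences close to 0 changed sign. With equal peak numbers the closed regions differed by -0.233 percentage points and the day difference in Jaccard index to Tet2-WT was 0.000654. At q 0.001 the closed regions differed by -0.0112 points, and with 50% coverage the MEF regions by 1.61 points. Leaving out 1 library, Tet2-E minus empty vector ranged from -2792 to 3229 for peaks, -313282 to 1237894 bp for length, -1.95 to 1.41 points for MEF regions, -1.03 to 2.29 for peaks outside MEF peaks, -3.04 to 4.77 for day 5 newly open regions, -0.135 to 0.105 for closed regions, -2.30 to 4.81 for Tet2-WT regions, -0.00962 to 0.0123 for Jaccard index and -0.00621 to 0.0659 for X. Day differences ranged from -1798 to 4222 for peaks, -98392 to 1452784 bp for length, -0.0281 to 0.108 for depth, -1.64 to 1.69 for peaks outside MEF peaks, -2.84 to 4.27 for Tet2-WT regions, -0.0174 to 0.00449 for Jaccard index and -0.0103 to 0.0618 for X. The alternatives of the day differences were chosen after seeing the data. The cause of these shifts was not tested.

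Replicate numbers were not taken to pair the libraries, since the labels name no shared batch and same-numbered deviations correlated at 0.00032 to 0.0275 over 35673 regions, all under 0.1. Other-numbered ones correlated at -0.0243 to 0.012, and 5 of 8 libraries correlated best with their own number. Relative depth fell in order from library 1 to library 4 in both groups. In the Tet2-WT day 10 libraries it fell in the same order, at 0.619, 0.587, 0.532 and 0.395. With the replicate block 0 regions and 0 windows passed (exact test, smallest p = 0.125 for regions, and limma for windows). Of 1846 windows, 30 had more and 48 had fewer peaks at an unadjusted limma p under 0.05.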
